A study of Mus musculus with 56 samples.

Results

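Genes whose array symbol begins with Kcn, apart from the inward rectifiers (Kcnj), were examined in the nucleus accumbens and prefrontal cortex of inbred mice. They comprise the voltage-gated, calcium-activated, sodium-activated and 2-pore-domain potassium channels with their accessory subunits. The array carried 69 such symbols on 136 probe sets that were annotated to a single symbol, of 18182 symbols in all. For each gene the brightest probe set was used, and 35 of the 69 genes passed a filter on low values (log2 intensity above 5 on at least 13 of 54 arrays). The members were chosen by symbol alone, so 3 of them are antisense or opposite-strand transcripts and not channel genes: Kcnq1ot1 of the Kcnq1 locus, which was tested, and Kcnmb4os1 and Kcnmb4os2 of the Kcnmb4 locus, which did not pass the filter.

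The samples were 27 nucleus accumbens arrays and 29 prefrontal cortex arrays, 1 array per region and strain. Each array held total RNA pooled from 3 male mice aged 8 to 10 weeks, with no treatment named in the labels, so the spread between single animals cannot be seen. The paired strains were C57BL/6J, 129S1/SvImJ, DBA/2J, C3H/HeJ, A/J, CBA/J, BALB/cByJ, FVB/NJ, AKR/J, SJL/J, BTBR T+ tf/J, NOD/LtJ, C58/J, BUB/BnJ, WSB/EiJ, NON/LtJ, CE/J, NZW/LacJ, C57BR/cdJ, SWR/J, I/LnJ, SM/J, P/J, KK/HlJ, RIIIS/J, MA/MyJ and PL/J. MRL/MpJ and NZO/HILtJ had a cortex array here and entered no test. Both regions of a strain came from neighbouring slices of the same brains. Values are the log2 of the authors' normalised intensities, and a region difference is accumbens minus cortex.

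Potassium channels let potassium leave the cell and so set the resting potential, shorten the action potential and space successive spikes. Voltage-gated (Kv) channels are tetramers of pore subunits. Subunits of the same subfamily mix, and cytoplasmic partners such as the Kv beta subunits and the KChIP proteins alter their gating and surface number. In the striatum, of which the accumbens is the ventral part, slowly and rapidly inactivating potassium currents hold back the firing of spiny projection neurons. In cortex, Kv3 channels are known for the brief spikes of fast-spiking interneurons.

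The region labels were checked against marker genes. All 8 measured spiny projection neuron markers were higher in accumbens and all 7 measured cortical excitatory neuron markers were lower (adjusted p under 0.05, limma). A few arrays stood apart. The mean of the spiny neuron markers was 8.00 in BALB/cByJ accumbens, against a median of 11.04 over the accumbens arrays, and 10.31 in MA/MyJ cortex, against a median of 5.53 over the cortex arrays. One array each of CE/J, NON/LtJ and WSB/EiJ was also taken to stand apart in striatal genes, from earlier results of these data, and these 5 strains were left out in an alternative fit. Of the 27 paired cortex arrays, 24 correlated best with the accumbens array of their own strain, and those of C3H/HeJ, C57BR/cdJ and C58/J did not. Oligodendrocyte markers also moved with region: 7 of 7 measured were higher in accumbens, where their mean ran between 8.73 and 11.08, against 7.83 to 10.04 in cortex.

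Potassium channel genes differed between the regions in both directions. Of the 35 tested members, 13 were higher in accumbens (37.1%) and 19 were lower (54.3%), while 3 did not pass the test (limma with strain as a block, Benjamini-Hochberg adjustment over 10684 features, adjusted p under 0.05). Over all features tested, 51.0% were higher and 32.9% were lower, or 83.9% in either direction, so passing this test was common. The 13 include Kcnip4 and Kcnq1ot1, each with a further probe set past the test in the opposite direction. Kcna5 passed the filter through its accumbens arrays, and Kcnab3, Kcnc4 and Kcnk3 through their cortex arrays, so these 4 had to differ and their values are a description. At 2-fold or more, 6 members were higher (17.1%) and 8 were lower (22.9%), against 8.29% and 7.09% of all features. When any region mean below a floor of log2 5 was set to the floor, 6 and 8 members still passed, and 6.05% and 5.19% of all features passed. The median region difference was -0.34 on the log2 scale over the members and 0.12 over all features, and the median size of the difference was 0.89 over the members and 0.38 over all features. In these bulk samples, fewer cells of a type and less RNA per cell cannot be told apart.

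The direction was shared by most strains. In 13 members every one of the 27 strains moved the same way (37.1%, against 30.6% of all features). Values of the regions did not overlap in 5 members, Kcna5, Kcna2, Kcnh3, Kcnma1 and Kcnmb4 (14.3%, against 11.4% of all features), of which Kcna5 had no cortex array above the filter level. Without the 5 strains with an array that stood apart, they did not overlap in 19 members (54.3%, against 21.2% of all features). Those strains were set apart by striatal genes, which mark the region. Leaving them out therefore favours separation of the regions, and this share is a description. BALB/cByJ gave the lowest accumbens array in 9 of the 13 higher members, and MA/MyJ gave the highest cortex array in 7 of them. BALB/cByJ also gave the highest accumbens array in 6 of the 19 lower members, and MA/MyJ the lowest cortex array in 6. How often these arrays were at the end over all features was not counted. These counts are therefore not read as a trait of potassium channel genes.

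**Figure D1:**
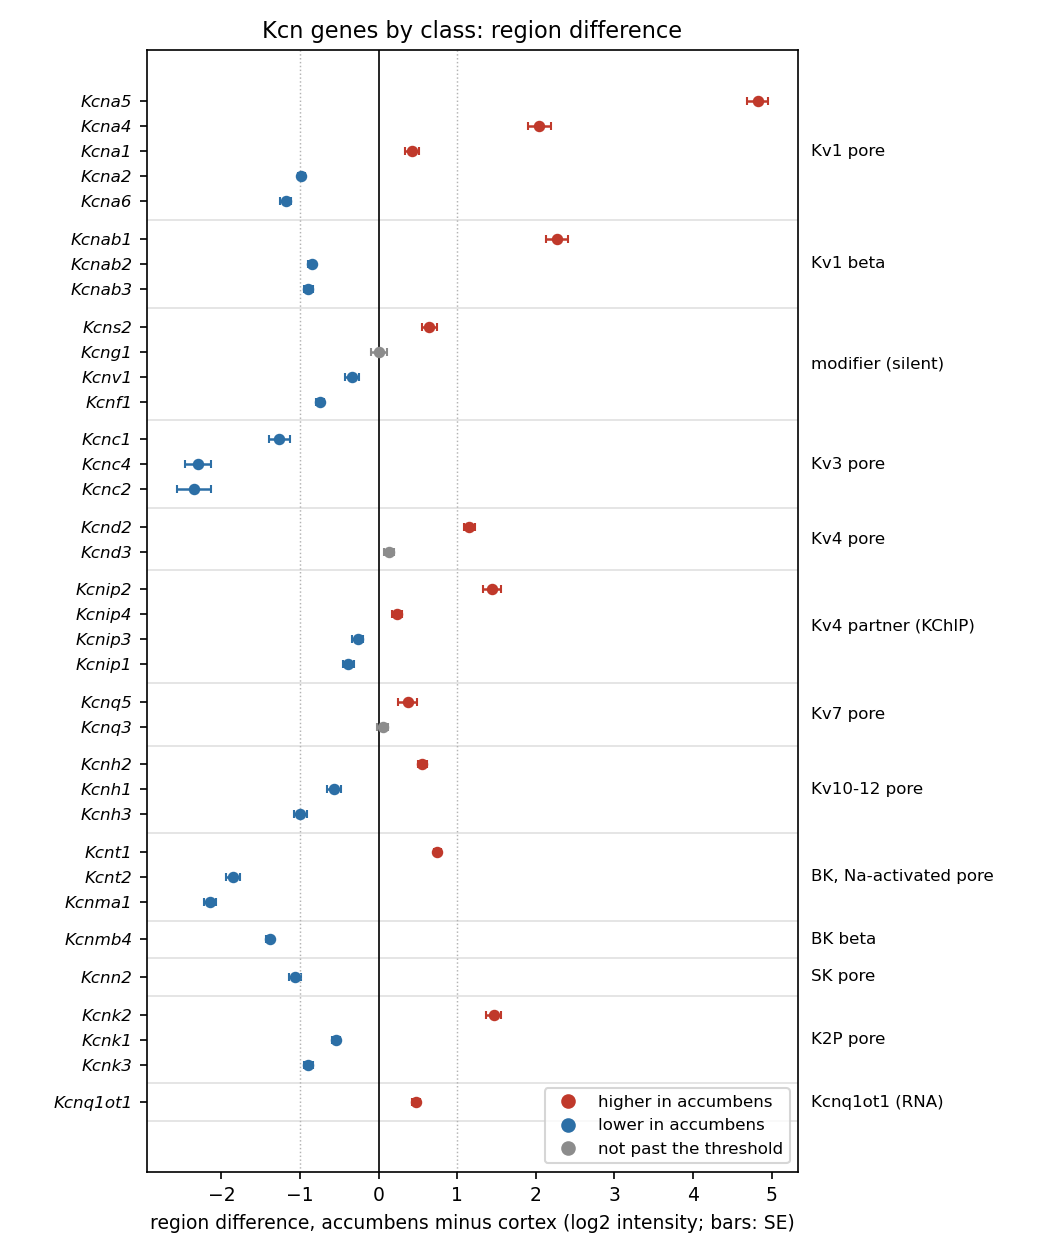
Region difference of the 35 tested Kcn genes, grouped by channel class. The horizontal axis is accumbens minus cortex in log2 intensity, points are limma estimates, bars are SE over 27 strains, and dotted lines mark a 2-fold difference. Kcna5 lies farthest to the right at 4.82 as measured, with its cortex mean under log2 5, and all 3 Kv3 pore genes lie left of 0.

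Start-region sequence was read for the members at both ends of this range, to show the DNA next to their transcription starts. RefSeq promoter windows (build GRCm38.p6) were found for 25 of the 35 tested members, 17 of them with 1 start. Shown are the 150 bases upstream of the start for the 3 single-start members with the largest difference in each direction, read 5′ to 3′ on the strand of the gene. Capitals mark the letters GGGCGG on either strand (CCGCCC when read on the other), the core of the GC box. The members higher in accumbens were Kcna5 at chr6:126535556-126535705 (minus strand), Kcna4 at chr2:107290439-107290588 (plus strand) and Kcnip2 at chr19:45816064-45816213 (minus strand). The members lower in accumbens were Kcnc4 at chr3:107458899-107459048 (minus strand), Kcnma1 at chr14:24004206-24004355 (minus strand) and Kcnt2 at chr1:140245568-140245717 (plus strand).
Kcna5: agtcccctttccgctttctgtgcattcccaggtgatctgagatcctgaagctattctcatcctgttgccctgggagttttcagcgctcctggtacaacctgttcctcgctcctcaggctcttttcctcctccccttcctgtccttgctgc
Kcna4: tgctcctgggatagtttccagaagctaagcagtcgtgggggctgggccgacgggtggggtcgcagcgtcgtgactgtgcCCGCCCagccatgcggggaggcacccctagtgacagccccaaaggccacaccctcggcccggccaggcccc
Kcnip2: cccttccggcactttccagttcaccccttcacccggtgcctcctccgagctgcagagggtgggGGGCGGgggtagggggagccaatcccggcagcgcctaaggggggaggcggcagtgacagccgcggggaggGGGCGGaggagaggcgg
Kcnc4: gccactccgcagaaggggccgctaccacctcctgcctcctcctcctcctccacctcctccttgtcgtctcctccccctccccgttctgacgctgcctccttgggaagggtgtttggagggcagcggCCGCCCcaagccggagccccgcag
Kcnma1: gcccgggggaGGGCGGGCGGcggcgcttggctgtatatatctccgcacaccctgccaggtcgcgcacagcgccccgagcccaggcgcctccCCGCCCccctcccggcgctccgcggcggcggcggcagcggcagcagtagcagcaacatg
Kcnt2: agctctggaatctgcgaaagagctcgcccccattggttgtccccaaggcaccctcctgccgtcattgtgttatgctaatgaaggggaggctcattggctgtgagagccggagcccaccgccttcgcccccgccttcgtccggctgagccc

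These upstream sequences differed in base content within each direction. The percent G plus C was 54.7 for Kcna5, 70.0 for Kcna4 and 73.3 for Kcnip2, and it was 70.0 for Kcnc4, 77.3 for Kcnma1 and 62.7 for Kcnt2. The stretch of Kcna5 had 3 CpG dinucleotides and no GC box, while that of Kcnma1 had 20 and 3 GC boxes, a pair of which overlap. Over windows of 300 bases (250 before and 50 after a start), GGGCGG was present on either strand in 41.5% of the 41 promoters of tested members and in 35.7% of the 32851 promoters of all genes. The palindrome TGACGTCA, the cAMP response element, was in 0 of 41 and in 1.79% of all, and TATAAA on either strand was in 2.44% and 13.6%. These matches describe the letters of the windows alone.

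The Kv1 pore genes, whose products form low-threshold channels of axons and dendrites, went in both directions. Of 7 measured, 5 were tested, of which Kcna5, Kcna4 and Kcna1 were higher in accumbens and Kcna2 and Kcna6 were lower. Kcna5 encodes a delayed rectifier best known from the heart. Its accumbens values ran from 5.39 in BALB/cByJ through a median of 7.85 to 8.54 in C57BL/6J, against 2.54, a median of 2.70 and 4.47 in MA/MyJ in cortex. No accumbens array was as low as any cortex array. The mean was 7.64 ± 0.74 in accumbens and 2.81 ± 0.37 in cortex (SD, n = 27 each), a measured difference of 4.82 ± 0.14 (SE; limma adjusted p = 8.49e-24). All 27 accumbens arrays and 0 cortex arrays were above log2 5, so the gene was tested because of its accumbens values. Since the cortex mean was under the floor of log2 5, the gene was at least 6.22-fold higher in accumbens, in 27 of 27 strains.

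Kcna4, the rapidly inactivating Kv1 subunit, ran from 6.26 in BALB/cByJ through a median of 8.63 to 8.88 in BTBR T+ tf/J in accumbens, against 5.17 in PL/J, a median of 6.34 and 8.28 in MA/MyJ in cortex. The regions overlapped through BALB/cByJ accumbens and MA/MyJ cortex; the next accumbens array was at 7.31 and the next cortex array at 6.73. It was 4.12-fold higher in accumbens (log2 difference 2.04 ± 0.14, adjusted p = 6.18e-14, limma), in 26 of 27 strains. Kcna1 encodes a juxtaparanodal axonal subunit and averaged 9.82 ± 0.41 in accumbens and 9.39 ± 0.16 in cortex, a difference of 0.43 (adjusted p = 3.99e-05, limma). With the oligodendrocyte marker mean as a covariate the Kcna1 difference was 0.42 with an adjusted p of 0.0659.

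Kcna2, which joins Kcna1 at juxtaparanodes, was lower in accumbens in all 27 strains. It ran from 8.18 in C57BR/cdJ through a median of 8.49 to 8.96 in BALB/cByJ in accumbens, against 9.26 in C57BL/6J, a median of 9.51 and 9.73 in NZW/LacJ in cortex. The groups did not overlap, and the difference was -0.98 ± 0.04 (SE; adjusted p = 5.63e-19, limma). Kcna6 averaged 5.73 ± 0.36 in accumbens and 6.92 ± 0.22 in cortex, 2.27-fold lower (adjusted p = 3.02e-15, limma). Kcna5, Kcna1 and Kcna6 are consecutive protein-coding genes on chromosome 6 in the RefSeq annotation, and they were at least 6.22-fold higher, 1.34-fold higher and 2.27-fold lower in accumbens. Kcna2 on chromosome 3 adjoins Kcna3, which was under the filter.

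All 3 Kv beta genes, whose products bind the cytoplasmic side of Kv1 channels, were measured and passed the test, as did 83.9% of all features. Kcnab3 passed the filter through its cortex arrays, so its call is a description. Kcnab1, which confers rapid inactivation on Kv1 channels, was 4.82-fold higher in accumbens. It ran from 7.28 in BALB/cByJ through a median of 9.84 to 10.42 in FVB/NJ in accumbens, against 7.02 in SWR/J, a median of 7.37 and 9.45 in MA/MyJ in cortex. The difference was 2.27 ± 0.14 on the log2 scale (SE; adjusted p = 1.14e-15, limma), in 26 of 27 strains, and it was 2.54 without the 5 strains. Kcnab2 was lower in accumbens in all 27 strains, at 8.51 ± 0.24 in accumbens and 9.36 ± 0.15 in cortex (difference -0.85, adjusted p = 5.42e-18, limma). Kcnab3 averaged 4.30 ± 0.33 in accumbens and 5.19 ± 0.24 in cortex, at least 1.14-fold lower (adjusted p = 2.53e-14, limma), with 1 accumbens array and 23 cortex arrays above log2 5.

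**Figure D2:**
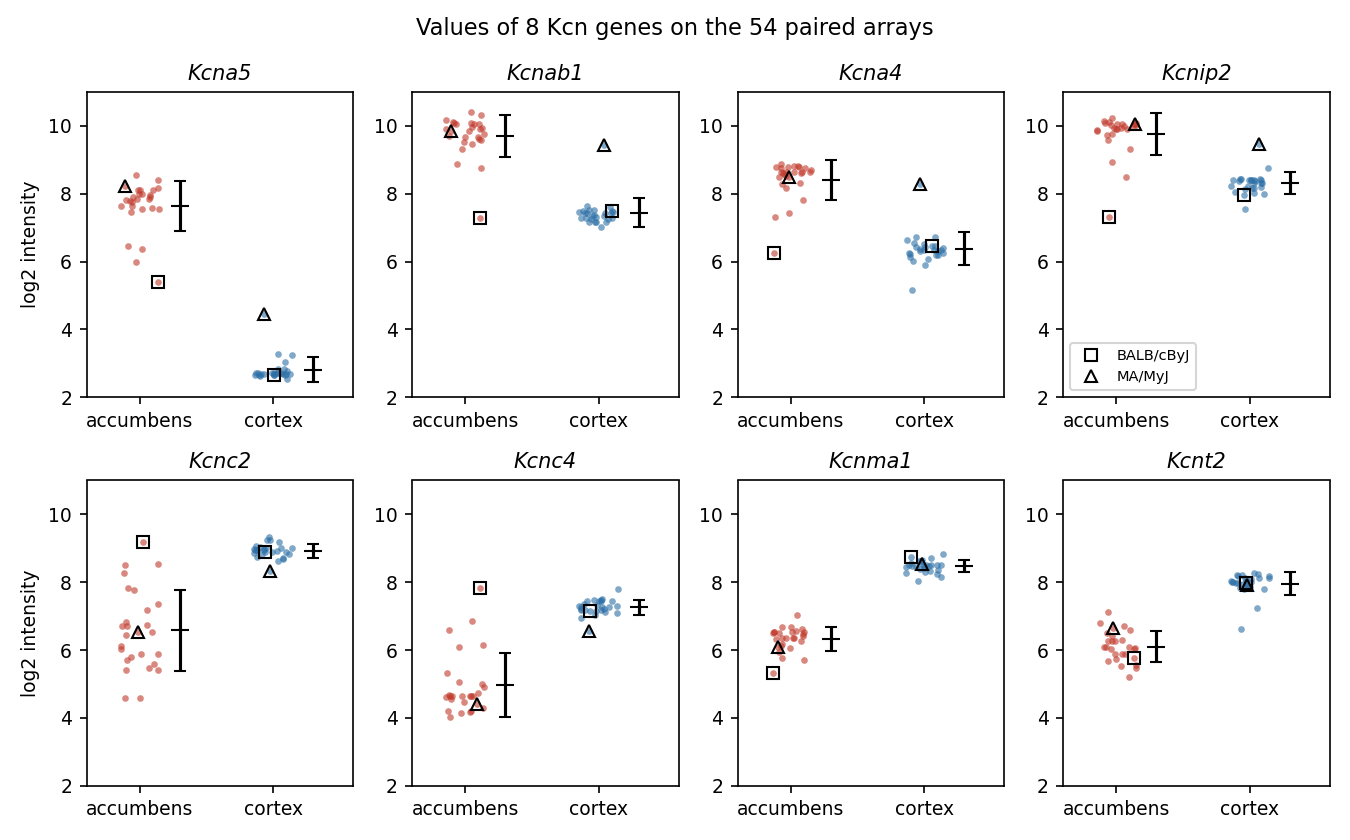
Log2 intensity of 8 Kcn genes on the 54 paired arrays, 1 point per strain, accumbens left of cortex, with bars giving the mean and SD (n = 27). Squares mark BALB/cByJ and triangles mark MA/MyJ. Kcna5 had no cortex array above 4.47, and BALB/cByJ accumbens was the lowest accumbens array for Kcna5, Kcnab1, Kcna4, Kcnip2 and Kcnma1 and the highest for Kcnc2 and Kcnc4.

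The modifier subunits form no channel alone and join Kv2 pores. Of 9 measured, 4 were tested, and Kv2 pore genes were not analysed here. Kcns2 averaged 7.31 ± 0.51 in accumbens and 6.66 ± 0.23 in cortex, higher by 0.65 (adjusted p = 3.59e-07, limma). Kcnf1 averaged 7.51 ± 0.28 in accumbens and 8.26 ± 0.21 in cortex, lower in all 27 strains (difference -0.75, adjusted p = 5.15e-14, limma). Kcnv1 was lower on its brightest probe set, at 5.97 ± 0.50 in accumbens and 6.31 ± 0.31 in cortex (difference -0.34, adjusted p = 0.000542, limma). Its 2 further probe sets had -1.18 and -1.40. On the brightest one the difference was -0.22 without the 5 strains, and its adjusted p was 0.153 with the oligodendrocyte covariate. Kcng1 had values of 5.72 ± 0.39 in accumbens and 5.71 ± 0.35 in cortex and did not pass the test (adjusted p = 0.977, limma).

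The Kv3 pore genes, which encode the fast channels of high-frequency firing, were all lower in accumbens, 3 of 3 tested. Kcnc4 passed the filter through its cortex arrays, so its direction is a description. Only Kcnc1 and Kcnc2 could have gone either way. Over all features, 32.9% were lower. Kcnc2 ran from 4.58 in C57BL/6J through a median of 6.53 to 9.19 in BALB/cByJ in accumbens, against 8.32 in MA/MyJ, a median of 8.96 and 9.32 in DBA/2J in cortex. The accumbens arrays spanned a wide range and the cortex arrays a narrow one, with an SD of 1.2 in accumbens and 0.21 in cortex. Kcnc2 was 5.09-fold lower in accumbens (difference -2.35 ± 0.22, SE; adjusted p = 4.52e-11, limma), in 26 of 27 strains.

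Kcnc4 ran from 4.03 in C58/J through a median of 4.65 to 7.83 in BALB/cByJ in accumbens, against 6.56 in MA/MyJ, a median of 7.27 and 7.80 in SWR/J in cortex. It was at least 4.80-fold lower in accumbens, where its mean of 4.97 was just under the floor (adjusted p = 9.56e-14, limma). It was above log2 5 on 7 accumbens and 27 cortex arrays. Kcnc1 averaged 7.63 ± 0.72 in accumbens and 8.90 ± 0.25 in cortex, 2.40-fold lower (adjusted p = 3.3e-10, limma). On these brightest probe sets BALB/cByJ was the highest accumbens array for all 3 genes. Without the 5 strains the differences were -2.73 for Kcnc2 and -1.49 for Kcnc1, and Kcnc4 was at least 4.89-fold lower. The 2 further Kcnc1 probe sets had smaller differences of -0.43 and -0.33. On the one with -0.33, BALB/cByJ had the second lowest strain mean over both regions, 6.56 against a median of 6.94.

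The wide accumbens spread of the Kv3 genes was shared among them. Across the 27 accumbens arrays, on the brightest probe set of each gene, Kcnc1 and Kcnc2 correlated with Pearson's r of 0.95 and Spearman's rho of 0.92. The r was 0.93 (rho 0.76) for Kcnc1 with Kcnc4 and 0.89 (rho 0.87) for Kcnc2 with Kcnc4. For these 3 relations the permutation p of both measures was 1e-05, the smallest that 100000 draws can give. The adjusted values over 18 relations were 2.6e-05 for r and 3.6e-05 for rho. The relations were not part of the tests planned, so this adjustment does not cover how they were chosen. How often other gene pairs correlate this strongly was not measured. Without the 2 farthest arrays, BALB/cByJ and NON/LtJ, the r values were 0.94, 0.87 and 0.87, and without the 5 strains they were 0.92, 0.75 and 0.82. In cortex the same pairs had r of 0.13 (rho -0.05), 0.31 (rho 0.34) and 0.25 (rho 0.00), with adjusted permutation p of 0.62, 0.18 and 0.29 for r and 0.84, 0.12 and 0.99 for rho. Without the 2 farthest cortex arrays these r were -0.14, 0.29 and -0.20. The difference between the regions in r was not tested. Kcnc4 was above log2 5 on 7 of 27 accumbens arrays. Most of its accumbens values were thus under the floor, where sizes are not exact.

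Pvalb and the spiny neuron marker mean moved with the Kv3 genes across accumbens arrays, in opposite directions. Pvalb, a marker of fast-spiking interneurons, had 4.58 ± 1.46 in accumbens and 8.66 ± 0.26 in cortex. In accumbens it ran from 2.51 through a median of 4.35, under log2 5, to 7.61, and in cortex from 7.82 to 9.10. Of 5 tested interneuron markers, Pvalb was the one set against the Kv3 genes. Of the others, Vip (-5.96), Sst (-0.52) and Npy (-0.44) were lower in accumbens, and Lhx6 was higher (1.62). The r of Pvalb with Kcnc1, Kcnc2 and Kcnc4 across accumbens arrays was 0.77, 0.83 and 0.67 (rho 0.88, 0.88 and 0.76). The adjusted permutation p was at most 0.0001 for r and 6e-05 for rho. The r was 0.73, 0.80 and 0.61 without the 2 farthest arrays, and 0.70, 0.77 and 0.55 without the 5 strains. The spiny neuron marker mean had r of -0.84, -0.75 and -0.90 with the same genes (rho -0.63, -0.71 and -0.64), with an adjusted permutation p of 2.6e-05 for each r and at most 0.0012 for rho. Without the 2 farthest arrays these r were -0.79, -0.72 and -0.81, and without the 5 strains they were -0.51, -0.58 and -0.50. The oligodendrocyte marker mean had r of -0.07, -0.07 and 0.12 (rho -0.18, -0.08 and 0.06). Its adjusted permutation p was 0.63 or more for r and 0.52 or more for rho. But its r was -0.46, -0.39 and -0.27 without the 2 farthest arrays, and -0.49, -0.35 and -0.29 without the 5 strains. In cortex Pvalb had r of 0.54 with Kcnc1 (rho 0.45; adjusted permutation p 0.0071 for r and 0.037 for rho; 0.45 without the 2 farthest), and 0.21 with Kcnc2 (rho -0.08) and 0.42 with Kcnc4 (rho 0.36), whose adjusted p were 0.37 and 0.058 for r and 0.82 and 0.10 for rho. The part of these cell markers in the region differences of the Kv3 genes was not tested.

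The Kv4 channels carry the A-type current of cell bodies and dendrites, and the KChIP proteins are their calcium-binding partners. Of 3 measured Kv4 pore genes 2 were tested. Kcnd2 ran from 8.73 in BALB/cByJ through a median of 10.05 to 10.44 in BTBR T+ tf/J in accumbens, against 8.53 in NON/LtJ, a median of 8.74 and 9.82 in MA/MyJ in cortex. It was 2.23-fold higher in accumbens (difference 1.16 ± 0.07, SE; adjusted p = 4.3e-15, limma), in 26 of 27 strains. Kcnd3 averaged 7.92 ± 0.27 in accumbens and 7.79 ± 0.16 in cortex and did not pass the test (adjusted p = 0.0546, limma). Its difference was 0.13 over all strains and 0.01 without the 5 strains.

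All 4 KChIP genes were tested, and on their brightest probe sets 2 were higher and 2 were lower in accumbens. One of the higher ones, Kcnip4, had a further probe set that was lower past the test (-0.18), so its direction is not settled. Kcnip2 ran from 7.31 in BALB/cByJ through a median of 9.95 to 10.23 in BTBR T+ tf/J in accumbens, against 7.55 in C57BL/6J, a median of 8.31 and 9.48 in MA/MyJ in cortex. It was 2.72-fold higher in accumbens (difference 1.45 ± 0.12, SE; adjusted p = 1.19e-12, limma), in 26 of 27 strains. Kcnd2 and Kcnip2 therefore stood at 1.16 and 1.45, while the other 3 Kv4 and KChIP differences past the test were between -0.39 and 0.23. Kcnip4 averaged 8.87 ± 0.26 in accumbens and 8.64 ± 0.24 in cortex (difference 0.23, adjusted p = 0.0013, limma), but 0.13 with an adjusted p of 0.053 after each array was centred on its median. Kcnip1 was lower by 0.39 (6.95 in accumbens and 7.34 in cortex, adjusted p = 1.11e-05, limma). Kcnip3, also known as the transcriptional repressor DREAM, had 6.90 in accumbens and 7.16 in cortex (adjusted p = 0.00103, limma). With the oligodendrocyte covariate the adjusted p was 0.119 for Kcnip1 and 0.222 for Kcnip3.

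The Kv7 channels carry the muscarine-sensitive M current. Of 3 measured genes, Kcnq5 and Kcnq3 were tested. Kcnq5 had 9.04 ± 0.62 in accumbens, where BALB/cByJ was lowest at 6.54, and 8.67 ± 0.18 in cortex. Its difference was 0.37 (adjusted p = 0.00472, limma) and 0.58 without the 5 strains, but it had an adjusted p of 0.10 with the oligodendrocyte covariate. Its 2 further probe sets did not pass the region test, at 0.10 (adjusted p = 0.516, limma) and 0.08 (adjusted p = 0.721, limma). Kcnq3 had 9.06 ± 0.39 in accumbens and 9.01 ± 0.16 in cortex and did not pass the test over all strains (adjusted p = 0.467, limma). Without the 5 strains the Kcnq3 difference was 0.20 with an adjusted p of 4.55e-05.

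Of 6 measured genes of the ether-a-go-go family, 3 were tested. Kcnh2, the ERG channel, averaged 5.81 ± 0.33 in accumbens and 5.26 ± 0.16 in cortex, higher by 0.56 (adjusted p = 1.16e-09, limma). Kcnh3, an ELK channel of the forebrain, was lower in accumbens in all 27 strains with no overlap, at 6.11 ± 0.43 in accumbens and 7.11 ± 0.13 in cortex (1.99-fold, adjusted p = 8.51e-13, limma). Kcnh1, the founding EAG channel, had 7.69 ± 0.42 in accumbens and 8.25 ± 0.21 in cortex (difference -0.56, adjusted p = 1.24e-06, limma). With the oligodendrocyte covariate the Kcnh1 difference was -0.10 with an adjusted p of 0.659.

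Calcium-activated channels end bursts of spikes and shape the afterhyperpolarisation, and 3 of their genes were tested. On its brightest probe set each was lower in accumbens in 27 of 27 strains. Over all features, 30.6% moved the same way in every strain. Kcnma1 encodes the large-conductance (BK) pore. It ran from 5.33 in BALB/cByJ through a median of 6.37 to 7.04 in AKR/J in accumbens, against 8.03 in RIIIS/J, a median of 8.49 and 8.83 in WSB/EiJ in cortex. The groups did not overlap, and Kcnma1 was 4.42-fold lower in accumbens (difference -2.14 ± 0.08, SE; adjusted p = 2.93e-21, limma). Further Kcnma1 probe sets were lower in 21, 25, 26 and 27 strains.

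Kcnmb4 encodes the neuronal BK beta subunit, the one of 3 measured that passed the filter. It ran from 7.16 in CE/J through a median of 7.74 to 8.13 in BTBR T+ tf/J in accumbens, against 8.64 in MA/MyJ, a median of 9.12 and 9.37 in I/LnJ in cortex. It was 2.62-fold lower in accumbens (difference -1.39 ± 0.05, SE; adjusted p = 6.73e-22, limma), so pore and beta subunit were lower together. Kcnn2, a small-conductance (SK) pore and the one of 4 measured SK and related genes that was tested, averaged 6.06 ± 0.43 in accumbens and 7.13 ± 0.28 in cortex, 2.09-fold lower (adjusted p = 1.65e-14, limma).

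The sodium-activated pores went in opposite directions. Kcnt1 was higher in accumbens in all 27 strains, at 7.06 ± 0.22 in accumbens and 6.31 ± 0.17 in cortex (difference 0.75, adjusted p = 8.66e-16, limma). Kcnt2 ran from 5.2 in BTBR T+ tf/J through a median of 6.08 to 7.11 in NOD/LtJ in accumbens, against 6.62 in SWR/J, a median of 8.00 and 8.27 in C57BL/6J in cortex. It was 3.60-fold lower in accumbens in all 27 strains (difference -1.85 ± 0.09, SE; adjusted p = 5.14e-18, limma).

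The 2-pore-domain channels carry leak current, and 3 of 12 measured were tested. Kcnk2, the stretch-sensitive TREK channel, ran from 7.09 in BALB/cByJ through a median of 8.29 to 8.70 in C3H/HeJ in accumbens, against 6.02 in CBA/J, a median of 6.71 and 8.43 in MA/MyJ in cortex. It was 2.76-fold higher in accumbens in all 27 strains (difference 1.46 ± 0.10, SE; adjusted p = 1.61e-14, limma). Kcnk1, the TWIK channel, had 8.37 ± 0.34 in accumbens and 8.91 ± 0.30 in cortex, lower in all 27 strains (difference -0.55, adjusted p = 1.94e-11, limma). Kcnk3, an acid-sensitive TASK channel, had 4.16 ± 0.32 in accumbens and 5.05 ± 0.19 in cortex, at least 1.04-fold lower (adjusted p = 1.48e-14, limma), with 1 accumbens array and 17 cortex arrays above log2 5. The noncoding Kcnq1ot1 averaged 7.39 ± 0.25 in accumbens and 6.92 ± 0.20 in cortex (difference 0.48, adjusted p = 2.5e-09, limma).

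The other 34 members did not pass the filter, among them Kcna3, Kcnd1, Kcnq1, Kcnn1 and Kcnn3 and all 5 Kcne genes, which encode single-span accessory subunits. In 33 of them no array was above log2 5, and Kcnh5 was above it on 5 arrays, at most 5.21. Values this low were nearly constant within a region and offset between regions: Kcng2 had 1.32 ± 0.01 in accumbens and 1.21 ± 0.01 in cortex. When the filter was left off, 28 of the 34 passed the region test with a residual SD as low as 0.00674, and no direction was read from them.

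For 20 members more than 1 probe set was kept, which gave 31 further probe sets. Of these, 29 had the sign of the brightest, and 25 of the 29 also passed the region test. Kcnab1 had 2.27 on its brightest probe set and 2.93 on the other. Kcnc4 was at least 4.80-fold lower on its brightest and at least 1.31-fold lower on the other. The brightest probe sets of Kcnc4 and Kcnh3 are of types that can also match other transcripts, and the further probe set of Kcnh3 had -0.82. The sizes differed more for Kcnma1, with -2.14 on the brightest and between -0.40 and -1.84 on 4 others, and for Kcnc1, with -1.26 and then -0.33 and -0.43. Kcnv1 and Kcnq5 also differed in size between their probe sets, as given above. The sign was opposite on 2 probe sets, both past the test: one of Kcnip4 at -0.18 (adjusted p = 0.00728, limma) and one of Kcnq1ot1 at -0.32 (adjusted p = 0.000139, limma), so no direction is given for these genes as a whole. Further probe sets of Kcna4, Kcnc4, Kcnh1, Kcnip1, Kcnip3 and Kcnq1ot1 had a region mean under log2 5, where the size of a difference is not exact.

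**Figure D3:**
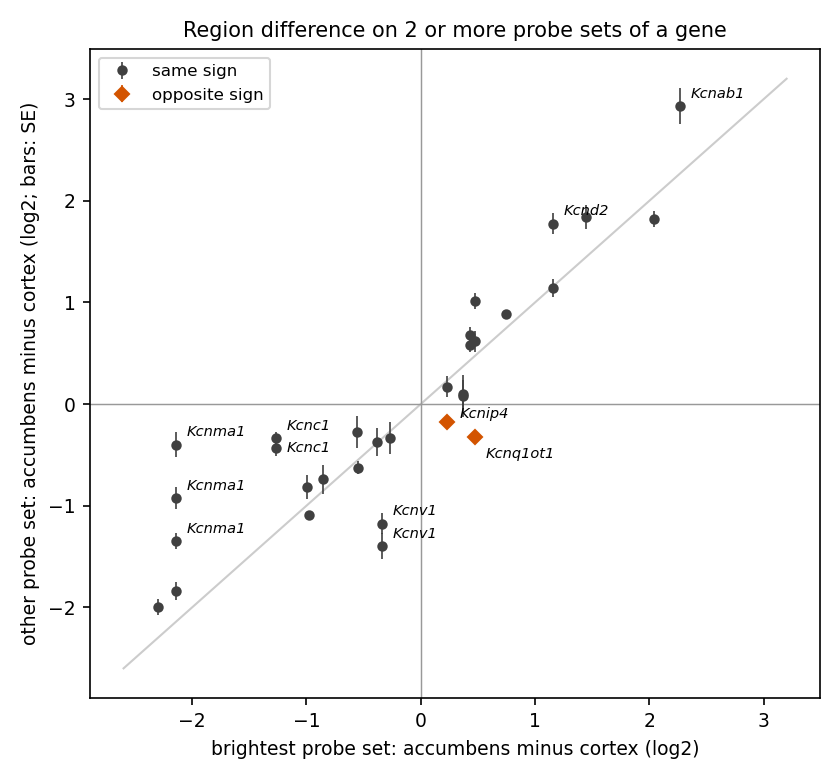
Region difference (accumbens minus cortex, log2) of each further probe set, on the vertical axis, against that of the brightest probe set of the same gene, on the horizontal axis. Bars are SE over 27 strains, the diagonal marks equal values, and names mark pairs that differ by more than 0.6 or in sign. Of the 31 points, 29 lie on the same side of 0 on both axes.

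Differences among strains that both regions shared were tested with the region-by-strain spread as the error. Of the 35 tested members 3 passed (8.57%, adjusted p under 0.05, moderated F in limma), against 20.4% of all features. The residual SD had a median of 0.28 over the members and 0.20 over all features, and the SD of strain means had a median of 0.23 and 0.18. Without the 5 strains, 7 members passed (20.0%), against 20.5% of all features: Kcnk1, Kcnn2 and Kcnab2 with Kcna6, Kcnf1, Kcnip4 and Kcnq3. BALB/cByJ had the lowest strain mean in 14 of the 35 members and the highest in 9. The share over all features was not counted, so this is a description of the members alone.

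Kcnk1 had the smallest p among the members (adjusted p = 0.000334, limma). Its strain mean over both regions was lowest in CE/J at 8.12 and in RIIIS/J at 8.13, had a median of 8.66, and was highest in BTBR T+ tf/J at 9.04 and KK/HlJ at 9.07. Its further probe set also passed the strain test (adjusted p = 0.00444, limma), with SWR/J lowest at 5.97 and FVB/NJ highest at 7.21. The strains at the very ends were thus others. PL/J was low on both probe sets (8.14 and 6.02) and FVB/NJ was high on both (9.01 and 7.21). SWR/J was near the median on the brightest (8.58), and KK/HlJ was near it on the further one (6.68 against 6.65). On the cortex array of MRL/MpJ, Kcnk1 had 8.25, below all 27 paired cortex arrays (8.39 to 9.30), while NZO/HILtJ had 9.13.

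Kcnn2 spanned 1.03 log2 units, from 6.05 in AKR/J through a median of 6.70 to 7.08 in NON/LtJ (adjusted p = 0.0235, limma). It was the one member past the strain test with a span of 1 log2 unit or more, or 2.86% of the members, against 12.8% of all features. Without C3H/HeJ, C57BR/cdJ and C58/J its adjusted p was 0.0561. Kcnab2 ran from 8.59 in 129S1/SvImJ to 9.29 in P/J (adjusted p = 0.0326, limma). That call was lost when 129S1/SvImJ, P/J or WSB/EiJ was left out (adjusted p of 0.0784, 0.0534 and 0.0608), and with the oligodendrocyte covariate (0.0589).

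**Figure D4:**
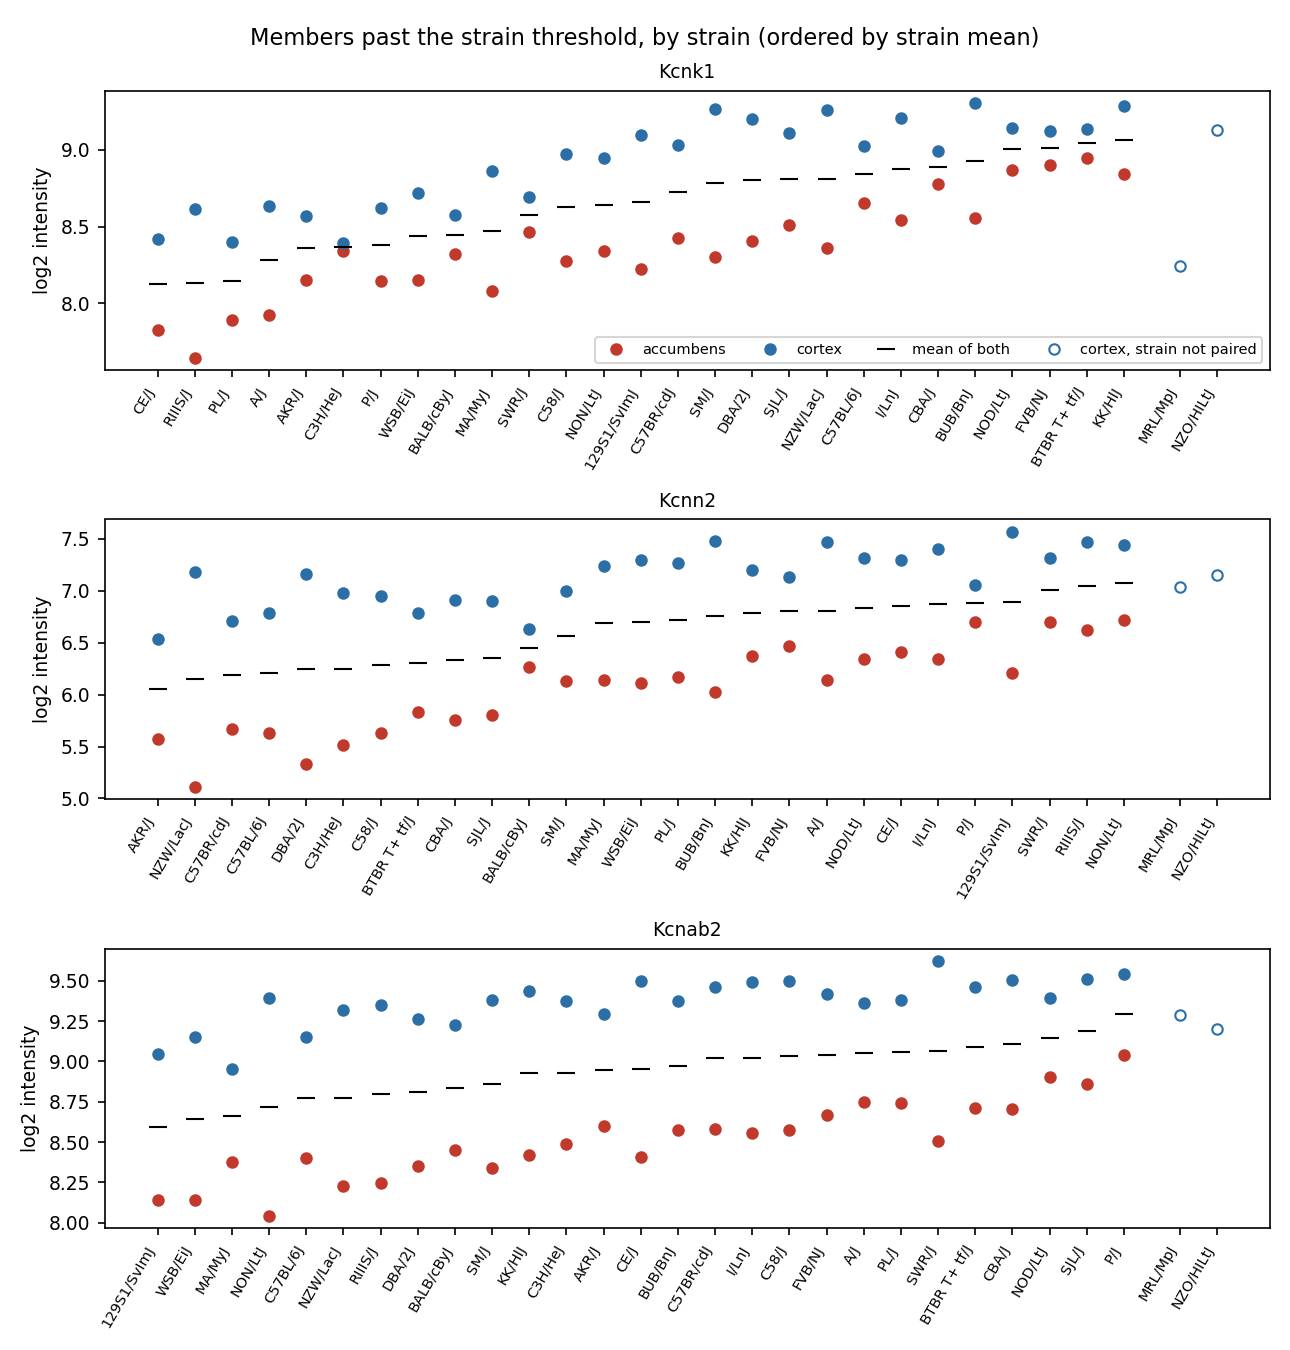
Log2 intensity of Kcnk1, Kcnn2 and Kcnab2 by strain, ordered by the strain mean (dash), with accumbens in red, cortex in blue and the cortex arrays of MRL/MpJ and NZO/HILtJ as open circles at the right. In Kcnk1 the means run from 8.12 in CE/J to 9.07 in KK/HlJ, and cortex lies above accumbens in every paired strain of all 3 genes.

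Over all kept probe sets of the members, 11 of 66 passed the strain test (16.7%), against 20.1% of 16056 probe sets. The largest strain differences were on dimmer probe sets. One dimmer probe set of Kcnq5 had strain means from 3.47 in NON/LtJ to 8.05 in NZW/LacJ, with an SD of 1.59 (adjusted p = 1.86e-06, limma). It was below log2 5 in both regions of 11 strains, above it in both regions of 13, and on different sides in BALB/cByJ, C3H/HeJ and SWR/J. In BALB/cByJ it had 4.23 in accumbens and 6.98 in cortex, and in C3H/HeJ it had 6.95 in accumbens and 4.34 in cortex. The brightest Kcnq5 probe set did not pass the strain test (adjusted p = 0.456, limma).

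A dimmer probe set of Kcnh1 was lowest in SM/J at 2.28, I/LnJ at 2.80, NON/LtJ at 2.88 and SWR/J at 2.92, against a median of 5.13 and a highest mean of 6.36 in AKR/J (adjusted p = 3.9e-05, limma). The next strain, FVB/NJ, had 4.69. This probe set was below log2 5 in both regions of 5 strains, above it in both regions of 13, and on different sides in 9. On the brightest Kcnh1 probe set the strain test was not passed (adjusted p = 0.668, limma). Further probe sets of Kcna1 (adjusted p = 0.0238), Kcnip2 (0.00645), Kcnma1 (0.0151), Kcnq1ot1 (0.022) and Kcnv1 (0.0422) passed the strain test of limma while the brightest of those genes did not. A sequence variant under a probe was not tested.

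**Figure D5:**
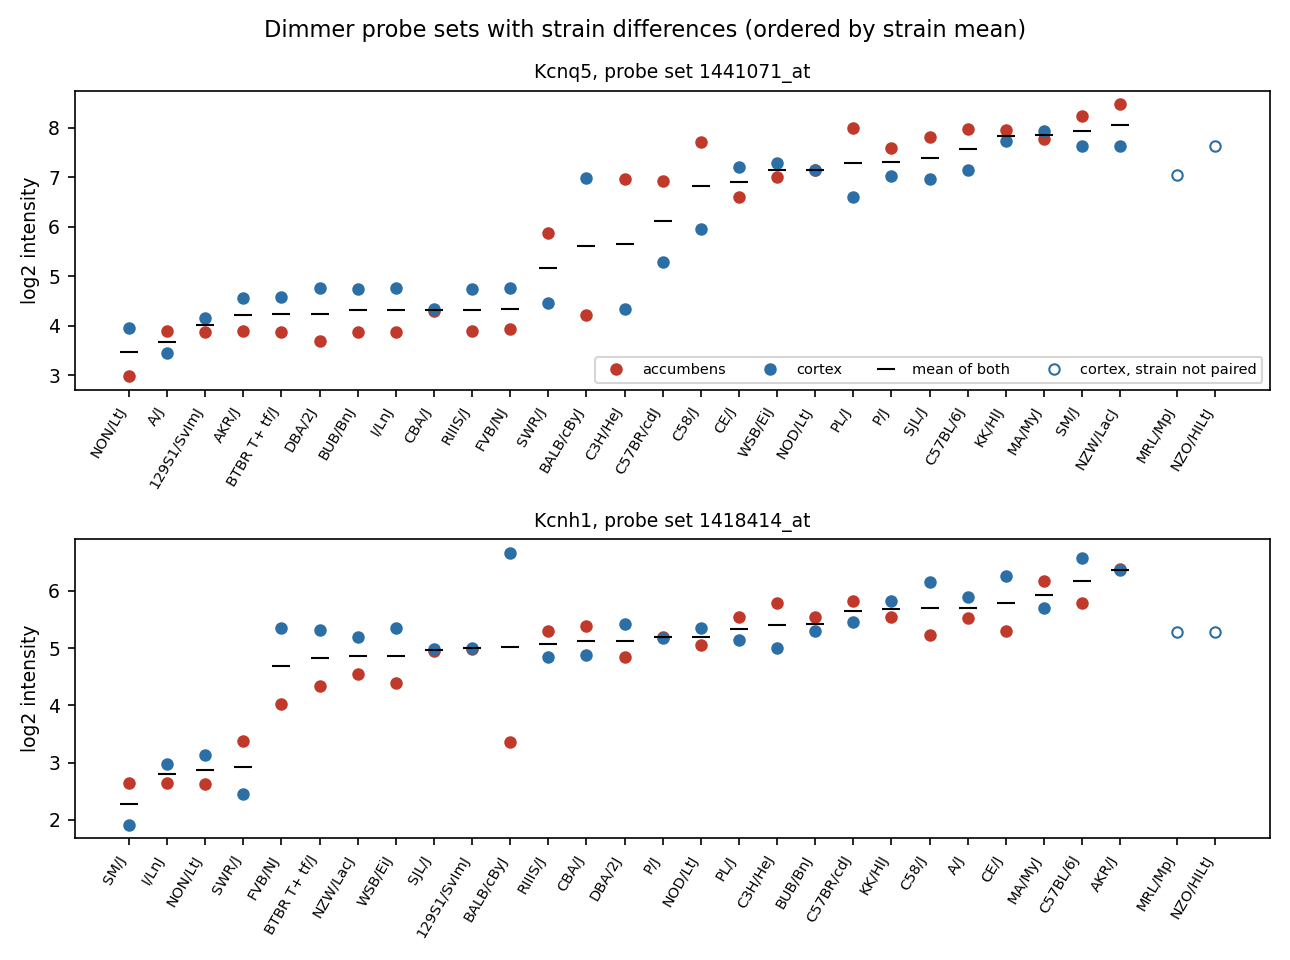
Log2 intensity by strain on a dimmer probe set of Kcnq5 (top) and of Kcnh1 (bottom), ordered by the strain mean (dash), with accumbens in red, cortex in blue and the cortex arrays of MRL/MpJ and NZO/HILtJ as open circles. For Kcnq5, 11 strains lie below log2 5 in both regions, and for Kcnh1, SM/J, I/LnJ, NON/LtJ and SWR/J lie lowest.

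Among genes without a Kcn symbol, a list of 30 channel partners and regulators was set beside the members. Of the 21 tested, 8 were higher in accumbens, 10 were lower and 3 did not pass, with a median difference of -0.07, beside 51.0% higher and 32.9% lower over all features. Stx1a, the syntaxin that binds several Kv channels, was 12.0-fold lower in accumbens, at 5.51 ± 0.29 in accumbens and 9.10 ± 0.17 in cortex (adjusted p = 3.68e-28, limma). Its SNARE partner Snap25 was lower by a smaller amount (difference -0.75), as was Dpp10 (-0.81), a transmembrane partner of Kv4 channels. Cntnap2, which clusters Kv1 channels at juxtaparanodes, was 4.03-fold higher in accumbens (difference 2.01, adjusted p = 1.26e-25, limma). Akap5, an anchor of protein kinase A and Kv7 regulator, was higher by 1.91 (adjusted p = 7.08e-14, limma).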

How the data were processed

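RNA from pooled tissue was measured on 56 one-colour arrays. The deposited intensity values were summarised per probe set with GCRMA, per the submitters' processing notes; its version and settings, and whether both regions were normalised together, are not given in the sources used here. The members and lists were chosen with earlier results of these data known. Intensities were taken to log2 and 64 control probe sets were left out. The platform annotation gave 1 symbol for 34880 probe sets, several for 923 and none for 9148, and symbols were updated through gene ids against RefSeq. Probe sets above log2 5 on at least 13 of 54 paired arrays were kept, with the brightest per gene, giving 10684 features. limma 3.58.1 (R 4.3.3) fitted strain and region, with 1 array per strain and region, so p-values measure the strain-by-region spread; strain pairs the regions because both came from the same brains. Adjusted p under 0.05 (Benjamini-Hochberg over all features) was the threshold. A region mean below log2 5 was raised to 5 before a fold was given as "at least". The text names all tested members; partners were limited to the 5 largest differences. Precision is set by how many arrays there are. Scan dates and batches were not analysed here. Alternatives covered the filter, normalisation, probe set rule, variance model, covariates, threshold, samples and the strain block. Marker lists for astrocytes, microglia, interneurons, endothelial, choroid plexus and blood cells were also measured: 2 of 6 tested astrocyte markers were higher in accumbens and 3 lower, 4 of 6 microglial markers were higher, 1 of 5 interneuron markers was higher and 4 lower, 1 of 4 endothelial and mural markers was higher and 3 lower, both choroid plexus markers were higher, and no blood marker was tested.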

Additional observations from a re-analysis of the deposited data

How the results depend on the processing

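Over the single-gene region differences, 491 alternative values kept their direction and side of the threshold, 11 lost the call, 5 gained it and 7 changed sign. With no filter on dim probe sets, 21 members were higher and 39 were lower in accumbens, since more genes were tested. Leaving out each strain in turn, the count of higher members was 13 to 14, of lower members 19, at 2-fold 6 higher and 8 to 9 lower, and past the strain test 2 to 5. The strain test called 7 members without the 5 strains and 1 at a threshold of 0.01. Signs changed for Kcng1, at -0.10 with arrays centred on their median, -0.14 with quantile normalisation and -0.078 without the 3 unmatched strains, and for Kcnq3, at -0.045 when centred and -0.023 with quantile normalisation; neither passed the test there or in the fit reported. One further probe set of Kcnip4 gave -0.18 and one of Kcnq1ot1 gave -0.32. With the oligodendrocyte covariate the calls of Kcna1, Kcnh1, Kcnip1, Kcnip3, Kcnq5 and Kcnv1 (adjusted p = 0.153) ended and Kcnd3 gained one at 0.34 (adjusted p = 0.0323). Kcnv1 was -1.40 with the filter at log2 7, where another probe set was used. With no replicate block, 14 members were higher and 19 lower, and the pairing changed no call but that of Kcnd3 (adjusted p = 0.0469). Kcnn2 missed the strain threshold with no filter (adjusted p = 0.0572). Leaving out 1 strain, Kcnd3 passed the region test in 9 cases (adjusted p 0.0288 to 0.0487), and a strain call was gained by Kcnv1 (without BALB/cByJ, BTBR T+ tf/J, C57BR/cdJ, PL/J or SM/J), Kcnab3 (PL/J), Kcnf1 (CE/J) and Kcnk3 (BALB/cByJ). The causes were not tested. The 5 and 9 strains were named from earlier results of these data, and the 3 unmatched strains and the leave-one-out were chosen after seeing the data.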

Other observations

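On the 2 cortex arrays without an accumbens partner, most members lay within the range of the 27 paired cortex arrays. Besides Kcnk1 in MRL/MpJ, the exceptions were Kcna1 in MRL/MpJ at 8.90, below the lowest paired array at 9.10, Kcns2 in NZO/HILtJ at 6.15, below 6.26, and Kcnt1 in NZO/HILtJ at 5.74, below 5.88.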
